A study of Mus musculus with 6 samples.

Results

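The genes described are those whose single symbol in the platform annotation begins with Kcn, Scn or Cacn, the families of potassium, sodium and calcium channel subunits. They comprised 100 genes on 117 probes, of 20289 probes on the array. Their RNA was measured in the urogenital ridge, the embryonic tissue that holds the gonadal primordium, the coelomic epithelium and the mesonephros, in mouse embryos at E11.5. Knockout (KO) embryos of the Mf1 strain were homozygous for deletion of Wt1, a transcription factor gene first found in Wilms tumour, and wild-type (WT) embryos were Mf1 without that deletion. Each genotype had 3 single-colour oligonucleotide arrays, and the labels describe the RNA of each as pooled from 4 females and 1 male, 5 embryos staged at 11 to 12 tail somites. Whether replicate arrays hold different pools is not stated, and p-values here therefore measure only array-to-array spread, which may be technical. Because the ridge is a mixture, fewer cells of a type and less RNA per cell cannot be told apart in these values.

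Voltage-gated channels are membrane proteins whose pore opens when the voltage across the membrane changes. A pore-forming alpha subunit carries a charged voltage sensor, and accessory subunits set how many channels reach the surface and how fast they open and close. They are best known from neurons and muscle, where sodium channels start the action potential, potassium channels end it, and calcium channels couple it to contraction or secretion. Several families that share these symbols are not opened by voltage. Inward rectifiers (Kcnj) and tandem-pore channels (Kcnk) set the resting potential, small-conductance potassium channels (Kcnn) respond to calcium, and epithelial sodium channels (Scnn) carry sodium across epithelia. The label voltage-gated therefore covered only part of the set. Roles were assigned by the start of the symbol, which need not match how each channel opens. By this rule 47 of the 117 probes, for 40 genes, were placed with the pore-forming voltage-gated sodium, calcium and potassium subunits. The accessory subunits of those channels made up 1 sodium channel beta, 3 calcium channel alpha2delta, 4 beta and 9 gamma, and 12 potassium channel partner probes, and of the rest 15 belonged to inward rectifiers, 12 to calcium- or sodium-activated channels and their partners, 8 to tandem-pore channels and 3 to epithelial sodium channels. Another 3 were not for channel proteins, namely Scnm1, which encodes a splicing factor, and the 2 probes of Kcnq1ot1, an imprinted noncoding RNA transcribed antisense within Kcnq1.

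Promoter windows are shown first for the called members that held a sequence resembling a Wt1 binding site, since Wt1 is the deleted gene. RefSeq windows of 300 bases, from 250 before to 50 after a start site, were found for 78 of the 100 genes, 109 windows in all. Both strands were searched for GCGTGGG, a core of the Wt1 site, and for GCGGGGGCG, a site shared with Egr1; these motifs do not contain one another. Of 19 members that passed the genotype test and had a window, 3 held either motif. Capitals mark the matches on either strand, and each run reads 5′ to 3′ on the strand of the gene.
Cacna2d1, GRCm38.p6 chr5:15934441-15934740, plus strand: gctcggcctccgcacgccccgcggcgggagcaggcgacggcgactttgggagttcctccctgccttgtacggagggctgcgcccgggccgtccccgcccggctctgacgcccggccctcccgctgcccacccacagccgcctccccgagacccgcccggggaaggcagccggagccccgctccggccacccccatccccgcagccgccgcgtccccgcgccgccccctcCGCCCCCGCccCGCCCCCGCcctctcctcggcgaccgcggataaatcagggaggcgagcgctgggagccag
Kcng3, GRCm38.p6 chr17:83631846-83632145, minus strand: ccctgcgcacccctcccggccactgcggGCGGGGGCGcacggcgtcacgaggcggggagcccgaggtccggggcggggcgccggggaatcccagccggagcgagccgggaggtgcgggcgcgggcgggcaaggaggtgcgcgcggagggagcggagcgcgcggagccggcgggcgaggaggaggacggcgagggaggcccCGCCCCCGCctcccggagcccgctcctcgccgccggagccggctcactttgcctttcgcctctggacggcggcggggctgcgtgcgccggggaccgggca
Kcns3, GRCm38.p6 chr12:11150324-11150623, minus strand: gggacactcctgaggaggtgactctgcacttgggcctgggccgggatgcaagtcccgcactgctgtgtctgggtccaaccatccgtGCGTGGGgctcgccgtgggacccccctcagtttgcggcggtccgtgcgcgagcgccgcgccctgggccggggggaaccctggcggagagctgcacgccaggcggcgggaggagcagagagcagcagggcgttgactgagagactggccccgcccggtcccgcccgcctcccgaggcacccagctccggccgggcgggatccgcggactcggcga
Cacna2d1, the member with the largest decrease, held the Egr1 and Wt1 motif at 2 places, both on the opposite strand. Kcng3 also held it at 2 places and Kcns3 held the core motif once, and both were higher in KO. A match is a description of these letters and not a binding site. Either motif was present at 15.8% of called members with a window (3 of 19), 19.4% of tested members that were not called (7 of 36) and 26.1% of members not tested (6 of 23), against 8.61% of all 27025 genes with a window. The member windows were richer in G and C, with a median of 58.0% against 52.7% in all windows. GGACAGC, a part of the site bound by the neuronal gene repressor Rest, occurred in 11.9% of member windows and 6.56% of all windows. TTCAGCACC, the remaining part of that site, occurred in 0 of 109 member windows and 0.371% of all windows.

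Most member probes were dim. Levels are the deposited intensities, on a linear scale on which the median probe, by its mean log2 over the 6 arrays, lay at 0.949. Of the 117 member probes, 36 (30.8%) lay above this median probe. The median over member probes was 0.412. Probes of the same gene could lie far apart, with means of 7.52 and 0.201 for Kcnh7. The order of probes by intensity is therefore not an order of genes by RNA amount. A probe was tested if its mean lay above the 25th percentile of all probes, an intensity of 0.217, and 75 member probes for 69 genes did so. Of the 42 probes not tested, 41 had means of 0.0850 to 0.210, and 9 of those had a value at or below 0 on at least 1 array. The remaining one, for Kcnc2, had no value on any array. Among the 31 genes with no tested probe were Cacna1s and Cacng1, subunits of the skeletal muscle calcium channel, and Scn3a, a neuronal sodium channel, named here after their values were seen. By role, 7 of 9 probes of sodium channel alpha subunits, 5 of 7 of calcium channel alpha1 subunits and 20 of 31 of voltage-gated potassium channel alpha subunits were tested. Only 5 of 15 inward rectifier probes were.

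**Figure D1:**
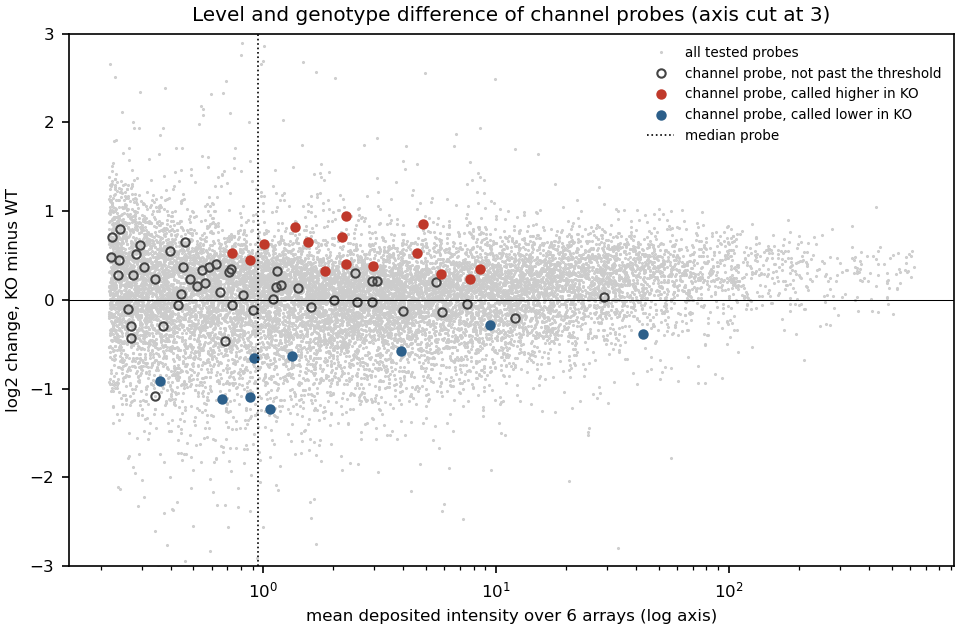
Each ring or filled point is 1 of the 75 tested channel probes, placed by mean deposited intensity over the 6 arrays (log axis) and by log2 change, KO minus WT, over all tested probes in grey. The dotted line marks the median probe at 0.949. Most filled points to its right are higher in KO, and the rightmost member is Scn11a at 42.6.

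The brightest member probe by far was that of Scn11a, a sodium channel alpha subunit known from pain-sensing neurons. Its intensities were 42.1, 33.6 and 36.7 on the KO arrays, against 46.4, 49.1 and 50.3 on the WT arrays. All KO arrays lay below all WT arrays, and the log2 change was -0.38 ± 0.09 (SE, adjusted p = 0.00455, limma). Bright probes moved with the scaling, and this change was -0.61 under quantile and -0.58 under cyclic loess normalization. Scnm1, the splicing factor, followed with 28.5, 29.5 and 30.1 in KO and 28.7, 28.9 and 28.7 in WT. These groups overlapped, with a log2 change of 0.03 ± 0.07 (adjusted p = 0.728) that turned to -0.16 under quantile normalization (adjusted p = 0.0403) and -0.14 under cyclic loess. Kcnq1ot1 had 11.4, 9.90 and 12.6 in KO and 12.1, 14.3 and 12.7 in WT on its brighter probe, which did not pass (adjusted p = 0.116) except under cyclic loess (0.0391) and without KO array 3 (0.04997). Among members with a mean intensity above 10, Scn11a was thus the only one that encodes a channel subunit.

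Over the 75 tested member probes, 15 were higher and 9 lower in KO at adjusted p under 0.05 in limma, adjusted over all 15062 tested probes. These are 20.0% and 12.0%, beside 24.1% higher and 17.2% lower among all tested probes. Of the members, 51 did not pass. With a further limit of 1.5-fold, 6 member probes were higher and 6 lower, 8.0% each, beside 6.83% and 8.68% of all tested probes. The shares of members called were thus somewhat below those of all probes, and about equal to them at the larger fold. None of these shares was tested against the background. The tested members were also dimmer, with 36 of 75 above the median probe, beside 10035 of all 15062 tested probes. All KO arrays lay above all WT arrays at 24 member probes (32.0%, background 31.4%) and below them at 10 (13.3%, background 21.4%). Every member probe that passed in either direction was among these, so lack of overlap is not separate support for a call. The median log2 change of the tested members was 0.21, and that of all tested probes was 0.09. At a limit of 2-fold, 0 of the 75 members were higher and 3 lower, beside 1.57% and 3.12% of all tested probes.

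The share of calls followed the level, in the members as on the array as a whole. Of the 36 member probes above the median probe, 13 were higher (36.1%) and 5 lower (13.9%), beside 32.0% and 21.0% of all probes above it. Of the 39 tested members at or below it, 2 were higher (5.13%) and 4 lower (10.3%), beside 8.2% and 9.77% of all such probes. The median standard error of a log2 change was 0.10 in the brighter members and 0.25 in the dimmer ones. A difference in a dim member was therefore harder to detect, and the 51 members that did not pass cannot be read as equal between genotypes.

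**Figure D2:**
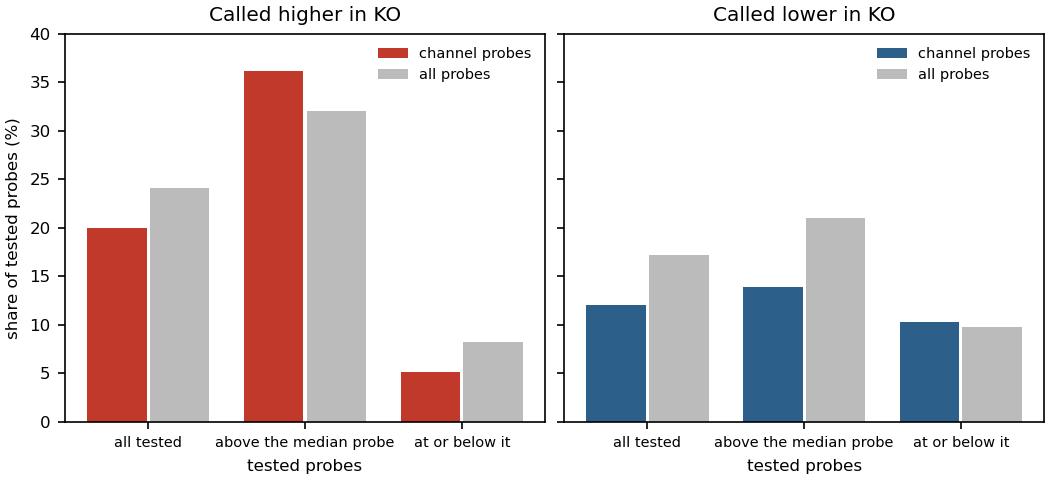
Bars give the share (%) of tested probes called higher (left panel) or lower (right panel) in KO at adjusted p under 0.05, for channel probes (coloured) and all probes (grey). Over all tested probes the channel bars stand at 20.0% and 12.0%, beside 24.1% and 17.2%. Both kinds of probe are called more often above the median probe than below it.

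The calcium channel subunits held the largest changes in both directions. Cacna1c encodes the pore of the L-type channel of heart, smooth muscle and neurons. Its intensities were 2.87, 3.42 and 3.12 on the KO arrays, against 1.64, 1.64 and 1.61 on the WT arrays. The means were 3.14 ± 0.278 in KO and 1.63 ± 0.0145 in WT (SD, n = 3 each). The gene rose 1.92-fold, or by 0.94 ± 0.09 on the log2 scale (SE), with adjusted p = 1.4e-05 (limma). This was the largest increase among the members that passed. Cacna1h, the pore of a T-type channel that opens at low voltage, was the brightest calcium channel member. It had 8.27, 9.195 and 8.15 in KO and 10.4, 10.2 and 10.4 in WT, and fell slightly but without overlap (log2 change -0.28 ± 0.07, adjusted p = 0.0101). The other 3 tested alpha1 subunits did not pass.

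Among the accessory calcium channel subunits, Cacna2d1 and Cacnb1 fell and Cacnb4 and Cacng8 rose. Cacna2d1 encodes the alpha2delta subunit that helps bring the channel to the cell surface and binds gabapentin. Its KO arrays had 0.679, 0.723 and 0.682 and its WT arrays 1.67, 1.52 and 1.70. The KO arrays clustered tightly, well below every WT array. The log2 change was -1.23 ± 0.12 (SE), a 2.35-fold decrease with adjusted p = 1e-05 (limma), and the KO mean fell below the median probe. The other 2 alpha2delta genes tested were dimmer and did not pass. Cacnb1, the cytoplasmic beta subunit of the skeletal muscle channel, had 0.891, 0.428 and 0.567 in KO and 1.37, 1.18 and 1.30 in WT. KO array 1 lay nearest to WT, but the groups did not overlap (log2 change -1.09 ± 0.22, adjusted p = 0.00205, 2.14-fold lower). Cacnb4, a beta subunit best known from the brain, was named after its values were seen. It rose 1.44-fold on its brighter probe (0.884 ± 0.0887 in KO and 0.611 ± 0.0201 in WT, SD, n = 3 each, adjusted p = 0.0141), whereas its dim second probe did not pass (adjusted p = 0.728).

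Cacng8 belongs to a family of calcium channel gamma subunits and is known as an auxiliary subunit of AMPA-type glutamate receptors. It had 2.60, 2.97 and 2.83 in KO, against 1.68, 1.77 and 1.69 in WT. It rose 1.63-fold (log2 change 0.70 ± 0.09, SE, adjusted p = 8.6e-05, limma), and the arrays did not overlap. It was the only one of the 5 tested members of this family that passed, 20.0% beside the 24.1% of all tested probes. All 5 log2 changes were positive, from 0.01 to 0.70, as were 58.7% of those of all tested probes.

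**Figure D3:**
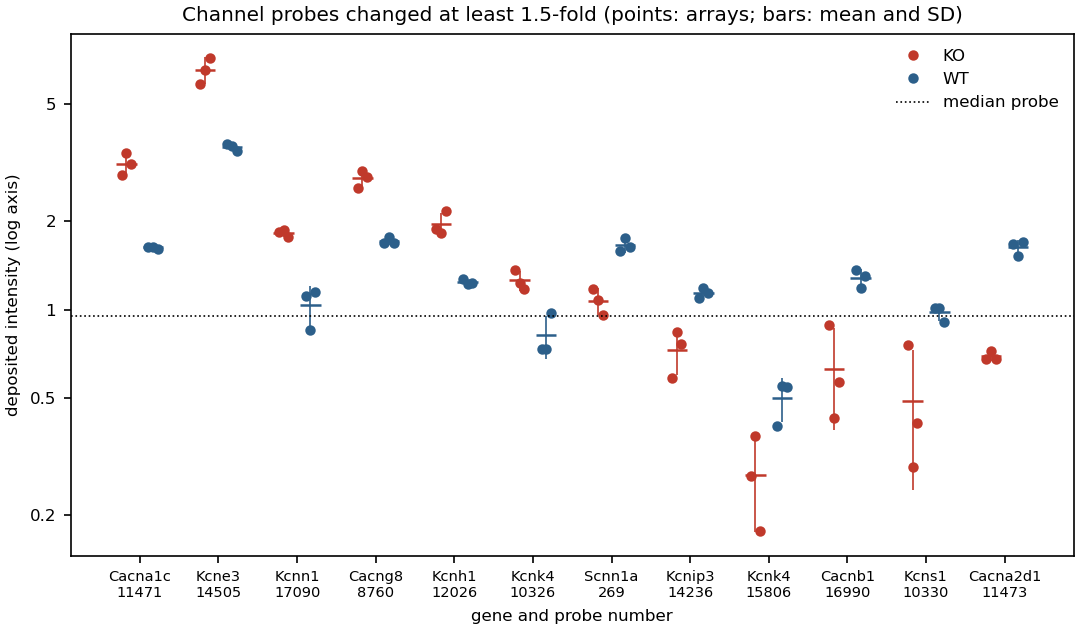
Deposited intensity (log axis) of the 12 channel probes that passed with a change of at least 1.5-fold, 3 KO arrays (red) left of 3 WT arrays (blue) for each. Horizontal bars are means and vertical bars SD. The genotypes do not overlap at any of the 12. The same held at all 24 channel probes that passed, so it is not separate support for a call. The 2 Kcnk4 probes move in opposite directions.

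Of the 20 tested probes of voltage-gated potassium channel alpha subunits, 5 were higher (25%) and 1 lower (5%) in KO, beside 24.1% and 17.2% of all tested probes. Kcnh1, an ether-a-go-go channel of the nervous system and of proliferating cells, had 1.88, 1.83 and 2.17 in KO, against 1.27, 1.23 and 1.23 in WT. It rose 1.57-fold without overlap (log2 change 0.65 ± 0.10, SE, adjusted p = 0.00038, limma). Kcns1, an electrically silent subunit that modifies other potassium channels, had 0.762, 0.292 and 0.411 in KO, against 1.01, 1.02 and 0.907 in WT. It fell 2.17-fold with a wide spread among the KO arrays (log2 change -1.12 ± 0.28, adjusted p = 0.00776). Its relative Kcns3, also silent on its own, rose 1.32-fold (2.60 ± 0.174 in KO and 1.97 ± 0.121 in WT, SD, n = 3 each, adjusted p = 0.0049). Kcng3, another silent subunit, rose 1.44-fold (5.49 ± 0.618 in KO and 3.81 ± 0.396 in WT, adjusted p = 0.00183). Both of these were picked out after seeing their values.

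The brightest probe of this class belonged to Kcnh3, a brain channel of the same ether-a-go-go family. It had 12.2, 8.38 and 8.59 in KO, against 7.08, 7.46 and 8.09 in WT, so KO array 1 stood well above the rest. The log2 change of 0.35 ± 0.13 (SE, adjusted p = 0.0461, limma) became 0.17 without KO array 1 (adjusted p = 0.0556). The call also ended without WT array 1, 2 or 3 (0.148, 0.118 and 0.0722) and under quantile and cyclic loess normalization (0.0879 and 0.119), no trend in the variance prior (0.144) and no filter on dim probes (0.0600). Its dimmer second probe did not pass (adjusted p = 0.592). Kcnh7, a close relative, had 8.26, 7.07 and 6.97 in KO and 7.50, 7.49 and 7.90 in WT on its bright probe. These values overlapped and the change of -0.04 ± 0.08 did not pass (adjusted p = 0.72). Kcnc1, a channel that ends action potentials quickly, was named after its values were seen and rose 1.36-fold on its brightest probe (adjusted p = 0.0234). That call ended without KO array 2 or 3 (0.0536 and 0.0706), without WT array 2 or 3 (0.0978 and 0.0679) and with no filter on dim probes (0.0531). A second Kcnc1 probe changed by 0.35 without passing (adjusted p = 0.0683; 0.0131 with no trend), and the third was too dim to test.

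Partner proteins of potassium channels changed in both directions. Kcne3, a single-span subunit that modulates channels such as the one encoded by Kcnq1, had 5.85, 6.55 and 7.202 in KO, against 3.67, 3.62 and 3.47 in WT. It rose 1.81-fold, clear of the spread between arrays (log2 change 0.86 ± 0.09, SE, adjusted p = 1.9e-05, limma). Kcnq1 itself was too dim to test. Kcne1l, an X-linked relative, was brighter, with 7.90, 9.15 and 8.03 in KO and 7.02, 7.202 and 7.03 in WT. Its change of 0.24 ± 0.08 passed (adjusted p = 0.0311) but not without KO array 2 (0.111), without WT array 1, 2 or 3 (0.1004, 0.0776 and 0.0853), under cyclic loess (0.0508) or with no trend in the variance prior (0.0730). Kcnip3 encodes DREAM, a calcium-binding partner of A-type potassium channels that also acts as a transcriptional repressor. It had 0.585, 0.841 and 0.767 in KO, against 1.10, 1.18 and 1.14 in WT. It fell 1.58-fold without overlap (log2 change -0.66 ± 0.15, adjusted p = 0.00477).

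Among channels opened by calcium or sodium, the small-conductance channel gene Kcnn1 had 1.85, 1.87 and 1.76 in KO, against 1.12, 0.855 and 1.15 in WT. It rose 1.77-fold, with every KO array above every WT array (log2 change 0.82 ± 0.13, SE, adjusted p = 0.000334, limma). Its relative Kcnn3, among the 10 brightest members, had 7.13, 6.04 and 6.12 in KO and 5.60, 5.06 and 5.02 in WT. This smaller rise (log2 change 0.30 ± 0.09, adjusted p = 0.0185) was lost without WT array 2 or 3 (0.0775 and 0.0755) and with no trend in the variance prior (0.0599). Kcnmb4, a partner of the large-conductance channel, was the brightest of this class at 5.96, 5.33 and 5.49 in KO and 6.22, 6.501 and 5.79 in WT. It overlapped between genotypes (adjusted p = 0.181; 0.0417 without KO array 1). Kcnma1 encodes the pore of that large-conductance channel and showed the largest change among members that did not pass, as seen after its values were known. On its brighter probe it had 0.643, 0.0612 and 0.249 in KO, against 0.481, 0.556 and 0.462 in WT. The KO arrays spread from above every WT value to far below (log2 change -1.08 ± 0.57, adjusted p = 0.152). KO array 2 lay under the floor of 0.0811 and entered the fit at that floor. Without KO array 1 the fitted change was -1.83 (adjusted p = 0.0031), of which 1 of the 2 KO values left is the floored one, so its size is not a measured one. The second Kcnma1 probe was too dim to test, with -0.122, 0.342 and 0.104 in KO and 0.0735, 0.0378 and 0.137 in WT.

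The inward rectifiers that passed include subunits of the potassium channel opened by G proteins, which slows the heartbeat and quiets neurons. Kcnj6 had 3.49, 3.05 and 3.05 in KO, against 4.64, 4.49 and 5.14 in WT, and fell without overlap (log2 change -0.58 ± 0.09, SE, adjusted p = 0.00034, limma). Kcnj3, whose product can join that of Kcnj6 in one channel, had 1.92, 2.18 and 2.11 in KO, against 1.49, 1.77 and 1.69 in WT. It rose 1.26-fold (adjusted p = 0.023), a call lost without KO array 2 or 3 (0.0635 and 0.0584) or WT array 1 or 3 (0.113 and 0.0522). Kcnj14, a strong rectifier, rose 1.30-fold (3.37 ± 0.156 in KO and 2.59 ± 0.1998 in WT, SD, n = 3 each, adjusted p = 0.00482). Both of these were picked out after seeing their values.

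Among the tandem-pore channels, Kcnk2, a channel sensitive to stretch and temperature, was the brightest, with 6.45, 5.69 and 5.66 in KO and 4.62, 5.59 and 5.35 in WT. The KO values lay above the WT values by little, and the change did not pass (log2 change 0.20 ± 0.09, SE, adjusted p = 0.111, limma). Kcnk4, a related stretch-sensitive channel, gave opposite results on its 2 probes, which are annotated to the same transcript. Probe 10326 had 1.37, 1.24 and 1.18 in KO, against 0.738, 0.738 and 0.978 in WT, and rose 1.55-fold (log2 change 0.63 ± 0.14, adjusted p = 0.00408). Probe 15806 had 0.272, 0.373 and 0.177 in KO, against 0.401, 0.551 and 0.548 in WT, and fell 1.89-fold (log2 change -0.92 ± 0.33, adjusted p = 0.0405). The second call was lost without KO array 3 (0.1004), without WT array 1, 2 or 3 (0.0554, 0.146 and 0.143) and with no trend in the variance prior (0.0520). No direction can be given for Kcnk4 from these probes.

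The epithelial sodium channel has alpha, beta and gamma subunits, all of which were tested. Scnn1a, the alpha subunit, had 1.18, 1.08 and 0.957 in KO, against 1.58, 1.76 and 1.63 in WT. It fell 1.55-fold without overlap (log2 change -0.63 ± 0.11, SE, adjusted p = 0.00095, limma). Scnn1b, the brightest of the 3, had 2.02, 1.996 and 2.0003 in KO and 2.21, 2.13 and 1.71 in WT, and did not pass (adjusted p = 0.997). Scnn1g, the gamma subunit, had 0.436, 0.645 and 0.692 in KO, against 0.841, 0.840 and 0.726 in WT. Its arrays did not overlap, but the change of -0.47 ± 0.20 did not pass (adjusted p = 0.0766). Among voltage-gated sodium channels, 0 of the 7 tested alpha probes passed as higher, beside 24.1% of all tested probes, and Scn11a alone passed as lower. Of these 7 changes 4 were positive. Scn1a, a neuronal alpha subunit picked out after seeing its values, had every KO array above every WT array without passing (log2 change 0.37 ± 0.19, adjusted p = 0.14). The beta subunit Scn2b, which also acts in cell adhesion, had a log2 change of 0.13 ± 0.11 (adjusted p = 0.367). Scn8a, a widespread neuronal channel named here for its pair of tested probes, had 2 dim probes with changes of 0.09 ± 0.25 and 0.40 ± 0.22, neither of which passed (adjusted p = 0.80 and 0.166; the second gave 0.0488 without KO array 2).

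**Figure D4:**
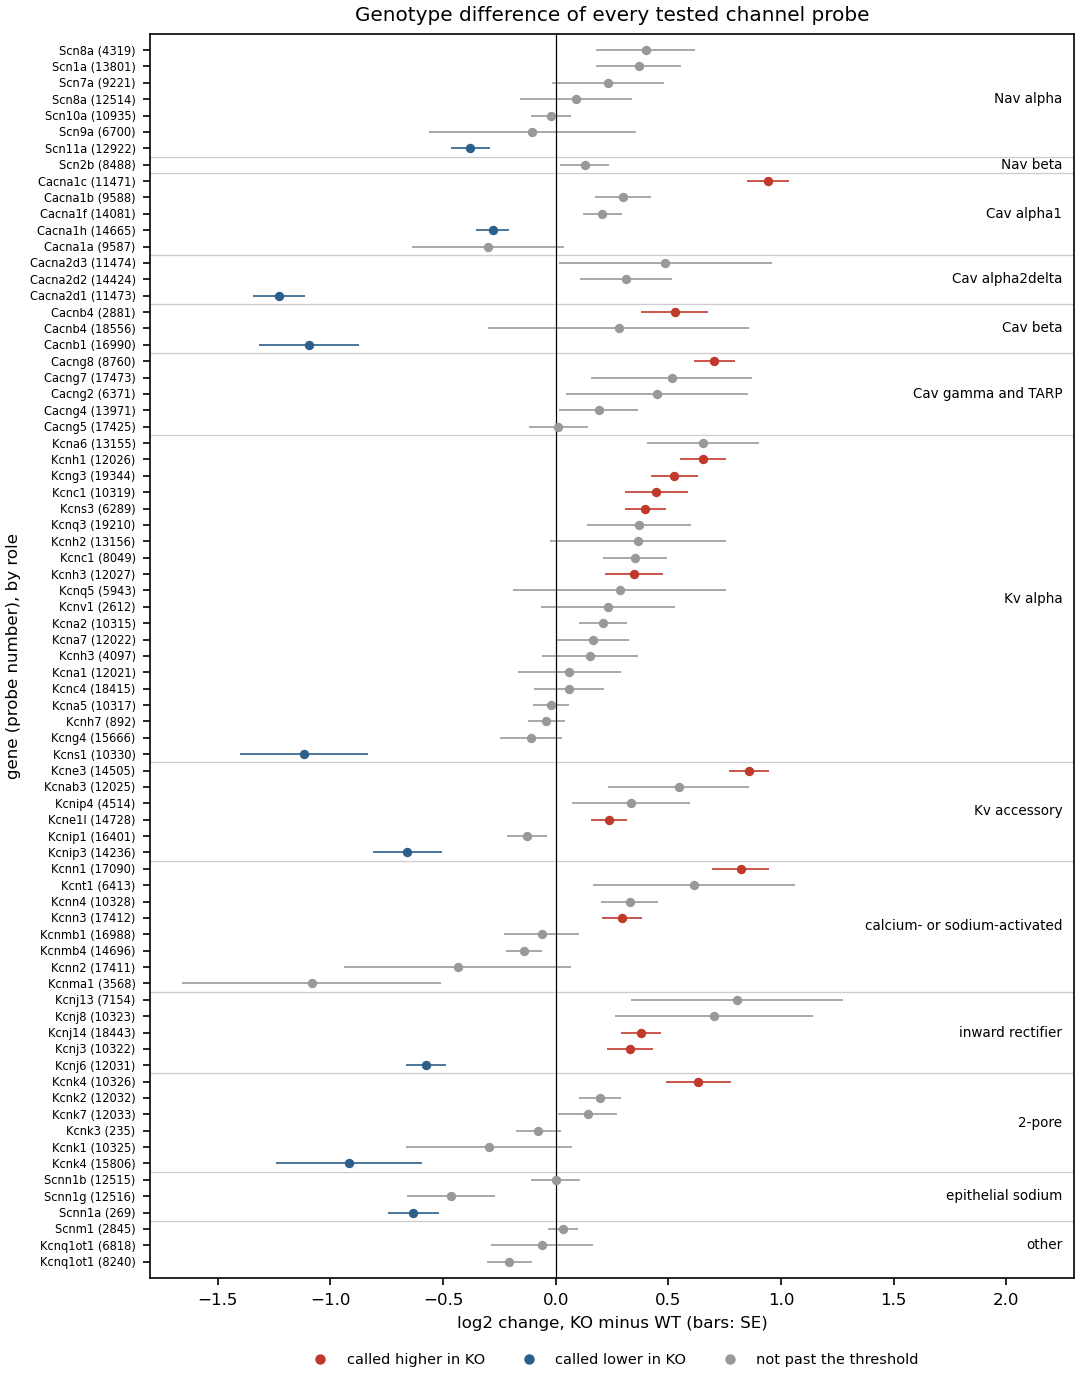
Log2 change, KO minus WT, with its SE for each of the 75 tested channel probes, grouped by role, with calls in red (higher in KO) and blue (lower in KO). The 15 increases are spread over 8 roles, with 0 called among the sodium channels, and the dim probes have the widest bars.

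Many channel genes lie in clusters of related genes. Of 14 pairs of members next to each other in the GRCm38.p6 gene table, with no other protein-coding gene between, 9 had both genes tested. Both genes passed in 0 of these pairs and 1 gene passed in 2 pairs, namely Cacng8 beside Cacng7 and Scn11a beside Scn10a. Of all tested probes, 24.1% were called higher and 17.2% lower. The same count over all neighbouring genes was not made, and 9 pairs are too few to show how clustered genes behave.

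Other genes of excitable membranes were taken from a list of 66 genes. It held further pore proteins, channel partners, calcium release genes and ion pumps, and also Rest and its partner Rcor1. Of these 45 had a named probe with a value on every array and 31 were tested, with 8 higher (25.8%) and 5 lower (16.1%) in KO, again near the 24.1% and 17.2% of all tested probes. Ank3 encodes ankyrin-G, which anchors sodium channels in the axon and joins membrane proteins to the cytoskeleton in epithelia. It had 16.5, 18.1 and 16.6 in KO, against 9.02, 9.12 and 8.60 in WT, a 1.92-fold rise (adjusted p = 2.49e-06, limma). The scaffold gene Cask rose 1.58-fold (23.1 ± 0.171 in KO and 14.7 ± 1.09 in WT, SD, n = 3 each, adjusted p = 3.62e-05). Stac2, a partner of calcium channels, fell 1.81-fold (2.08 ± 0.261 in KO and 3.75 ± 0.147 in WT, adjusted p = 5.35e-05). Of the pumps, the sodium pump beta subunit Atp1b1 fell 3.19-fold (0.406 ± 0.0424 in KO and 1.29 ± 0.102 in WT, adjusted p = 8.95e-06). Atp2a1, the calcium pump of fast skeletal muscle, rose 2.53-fold (1.43 ± 0.159 in KO and 0.570 ± 0.109 in WT, adjusted p = 5.78e-05). These 5 had the largest changes among the 13 that passed, and were picked for that after seeing the values. Rest and Rcor1 had no named probe with a value on every array, so they were not analysed here.

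Markers of several cell types were set beside these channel values. Neurons, neural progenitors and skeletal muscle are not among the ridge parts named at the start. RNA from neighbouring tissue cannot be told apart from RNA of the ridge in these values. Markers said to rise or fall are those called, and of all tested probes 24.1% were called higher and 17.2% lower. Of 12 neuronal markers measured, 11 of them tested, 9 rose and 0 fell. Their summed intensity was 60.5 to 61.3 on the KO arrays and 31.2 to 31.8 on the WT arrays. Of 10 skeletal muscle markers, 9 of them tested, 7 rose and 0 fell, with sums of 19.1 to 21.9 in KO and 4.71 to 5.38 in WT. Of 5 neural progenitor markers, 4 of them tested, 3 rose (45.8 to 50.4 in KO, 10.5 to 11.2 in WT). Of 7 sympathetic and chromaffin markers, 5 of them tested, 3 rose (30.5 to 31.4 in KO, 26.4 to 26.9 in WT). Of 9 cardiac and smooth muscle markers, 8 of them tested, 2 rose and 3 fell, with sums of 134 to 149 in KO and 186 to 197 in WT. Of 9 gonadal and coelomic markers 8 fell, with sums of 23.7 to 25.2 in KO and 100 to 110 in WT. Wt1, the deleted gene, is counted among them and in the sums, with means of 14.7 in KO and 42.3 in WT. Of 5 nephric markers, 4 of them tested, 1 rose and 2 fell (sums of 21.4 to 24.97 in KO and 18.6 to 20.4 in WT). Of 5 endothelial markers, 4 of them tested, 1 rose and 3 fell (45.0 to 48.3 in KO and 45.6 to 47.7 in WT). Of 3 macrophage markers 1 rose and 1 fell (6.81 to 7.92 in KO and 6.90 to 7.46 in WT). Bright probes weigh most in these sums. Zic1 had means of 29.5 in KO and 1.51 in WT, Gata3 16.7 and 9.64, and Kdr 37.7 and 31.7. From the same 3 lists, the dimmer Nes had 3.77 and 3.89, Emx2 3.96 and 6.12, and Emcn 6.27 and 10.9. The markers Chgb and Myh6 had a value at or below 0 on at least 1 array. The part of these shifts in the channel results was not tested. The median log2 change was 0.96 for the neuronal and 1.60 for the skeletal muscle markers, beside 0.21 for the channel members. Wt1 had 14.3, 15.7 and 14.2 in KO, against 44.1, 43.6 and 39.1 in WT on its brighter probe. Its dim second probe had 0.268, 0.134 and 0.466 in KO, against 0.785, 0.828 and 0.951 in WT. Both probes fell (adjusted p = 1.13e-07 and 0.00273), while the brighter one stayed well above the median probe in KO. They are not placed here relative to the deleted part, so they do not check the deletion.

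**Figure D5:**
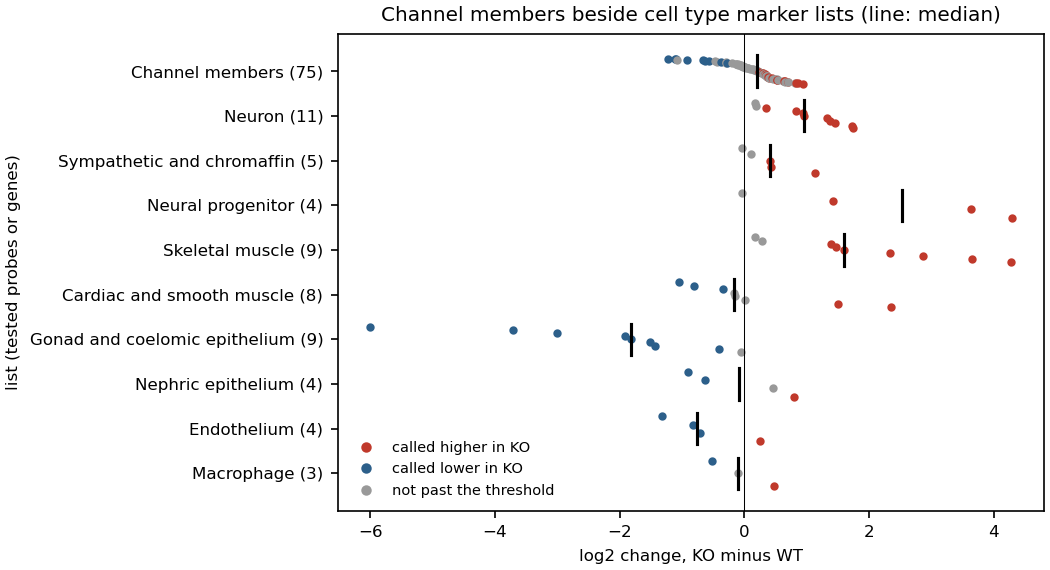
Log2 change, KO minus WT, of each tested channel probe (top) and of each tested gene of 9 marker lists, with the median as a black line (vertical spread within a list only separates the points). Channel members centre at 0.21, neuronal markers at 0.96, skeletal muscle markers at 1.60 and gonadal and coelomic markers at -1.81.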

How the data were processed

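Biotin-labelled total RNA was hybridised, per the labels' protocols, to the 20k mouse version of the Amersham CodeLink array. The deposited values are linear spot intensities with array medians of 0.956 to 0.966. How the authors scanned, background-corrected and scaled them is not stated in the labels or files used here. Each array had 153 to 246 values at or below 0 and 190 to 212 empty cells.

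Values under the 5th percentile of positive values (0.0811) were set to it and log2 was taken. Array medians differed by 0.0153, under the limit of 0.1, so none was rescaled. Probes with at least 2 values per genotype and a mean above the 25th percentile were tested with limma 3.58.1 in R 4.3.3 (intensity trend, genotype as the only term, two-sided, Benjamini-Hochberg). Changes are KO minus WT, folds are taken from that log2 value, and intensities are given as mean ± SD. The fit was tested on simulated data. Probe names come from GEO's platform annotation, 15120 with 1 symbol, 38 with several and 5131 unlisted. Kcnq1ot1 was kept apart from the potassium channels.

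Named are members changed at least 1.5-fold, the brightest of each role, all probes of these genes and the 10 brightest. The members and lists were chosen with earlier results of these data known. Alternatives were other normalizations, floors and filters, no variance trend, the replicate number as a block, and each array left out.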

Additional observations from a re-analysis of the deposited data

How the results depend on the processing

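Of the 24 channel calls, 18 held under all 14 other fits and none changed direction; the 6 lost under some fit are given above with their values (Kcnh3, Kcne1l, Kcnk4, Kcnc1, Kcnj3 and Kcnn3). Restricting the members to the 32 tested probes of pore-forming sodium, calcium and potassium subunits left 6 higher (18.8%) and 3 lower (9.38%). These stand beside 24.1% and 17.2% of all tested probes. Testing only probes above the median probe left 5 lower, since fewer probes entered, and the share over all probes in that fit is not given here. The median log2 change of the members was 0.17 under cyclic loess, 0.16 under quantile normalization, 0.18 among probes above the median probe and 0.28 with no filter on dim probes, and 0.14 to 0.22 with each array left out; the cause of these shifts was not tested. Directions turned only for members that had not passed. Among those that turned was Scnm1 (-0.16 under quantile and -0.14 under cyclic loess normalization). Over the fits with each array left out, Kcnh7 (-0.12 to 0.0027), the dim Kcnq1ot1 probe (-0.14 to 0.0134), a Scn8a probe (-0.14 to 0.39) and Scnn1b (-0.11 to 0.0720) turned too. Members not described one by one, such as Cacng5, could also turn and are not listed. With the replicate number as a block, 16 members were higher and 9 lower, and the share over all probes in that fit is not given here. Same-numbered arrays deviated together at r = -0.0208 to 0.000489, and 0 of 3 KO arrays correlated best with their own number. No link between same-numbered arrays was seen, and 3 pairs are too few to tell whether there is one. Among the further genes named, Ank3, Cask, Stac2, Atp1b1 and Atp2a1 kept their calls in every fit that tested them. Arrays give no detection flags here, so a dim member could not be told from background.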
